A study of Homo sapiens with 3 samples.

Results

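The genes described here encode respiratory complex I, its assembly factors and the RNAs of the mitochondrial genome. They were chosen by symbol: every gene listed in all 3 deposited tables whose name is NDUFA, NDUFB, NDUFC, NDUFS, NDUFV or NDUFAF followed by a number, or begins with MT-. This rule took 61 of 22773 genes. Of these, 37 are nuclear subunit genes (7 core and 30 accessory), 8 are assembly factor genes and 16 are mitochondrially encoded. The mitochondrially encoded genes comprise 13 mRNA genes, each called an mRNA below, 2 rRNA genes and 1 tRNA gene. The rule leaves out some genes of the complex, such as NDUFAB1, and takes NDUFA4, which is now regarded as a subunit of complex IV.

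Complex I (NADH:ubiquinone oxidoreductase) is the entry point of electrons into the respiratory chain: it takes electrons from NADH through a flavin and a chain of iron-sulfur clusters to ubiquinone and pumps protons across the inner mitochondrial membrane. Its core subunits do this work and are encoded partly in the nucleus and partly in mitochondrial DNA, while the accessory subunits, all nuclear, surround them, and assembly factors help to build the enzyme without staying in it. The mitochondrial genome is transcribed from both strands into long precursors that are cut at tRNAs, and its mRNAs encode the membrane core of complex I (MT-ND genes) and subunits of complexes III, IV and V.

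DU145 is an androgen-independent human prostate cancer line, and the study's title concerns TSPAN18, a tetraspanin membrane protein, in bone metastasis. Cells received 75 nM siRNA with a lipid reagent and RNA was taken 48 h later. The control siRNA and the pair of TSPAN18 siRNAs (siRNA 1 and siRNA 2) gave 1 library each, so the design has 3 libraries and no repeat of any condition. Levels are in CPM (a gene's read pairs scaled to a common library size) and, where 3 are given together, stand in the order control, siRNA 1, siRNA 2. Ranges in parentheses are 95% exact intervals that cover counting error only, and both siRNAs are read against the same 1 control library.

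The libraries held 30058731 (control), 29913825 (siRNA 1) and 29766559 (siRNA 2) counted pairs, so that 1 pair was worth 0.0333 to 0.0336 CPM. TSPAN18 itself was listed at 16.9, 1.37 and 1.51 CPM. Of the epithelial markers, KRT8 stood at 384 to 464 CPM and KRT18 at 139.6 to 175, and VIM at 432 to 497. EPCAM (8.59 to 13.7 CPM) and CDH1 (5.54 to 12.2 CPM) were low. The markers KLK3, TMPRSS2 and KRT5 were not listed in all 3 tables. Of the markers of other cell types, COL1A1 was at 3.18 to 7.25 CPM, PECAM1 reached 0.907 and VWF 0.269, and DCN, PTPRC and CD68 were not listed in all 3 tables. In a bulk RNA library, fewer cells and less RNA per cell cannot be told apart.

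No gene of the respiratory complex or the mitochondrial genome passed the test across all genes. In limma on log2(CPM + 1), which set the TSPAN18 siRNA pair against the lone control, 0 of 14185 genes whose mean level reached 1 CPM passed an adjusted p of 0.05, a share of 0%, and 691 had an unadjusted p under 0.05. Among the 59 members in that test the smallest adjusted p was 0.992. NDUFA7 and NDUFB8 were below the level filter. On the recovered read pairs, the edgeR quasi-likelihood test called 0 genes (770 with an unadjusted p under 0.05), the edgeR likelihood ratio test 23 and DESeq2 14, none of them a member. The limma test has 1 residual degree of freedom and assumes that the control varies like the siRNA libraries, so what follows describes sizes in these 3 libraries.

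A size rule then counted genes whose CPM + 1 was at least 25% above or at least 20% below that of the control. With siRNA 1, 2 of the 35 tested nuclear subunit genes were higher (5.71%), where 14.7% of all tested genes were, and 13 were lower (37.1%), where 30.3% of all tested genes were. With siRNA 2, 4 were higher (11.4%, against 18.5% of all tested genes) and 2 were lower (5.71%, against 17.8% of all tested genes). The number lower with siRNA 1 was thus near the share over all genes, and with siRNA 2 most subunit genes were near the control. Without the rule, 74.3% of the subunit genes and 59.5% of all tested genes were below the control to any extent with siRNA 1. Their median log2 ratio was −0.22 with siRNA 1 and 0.01 with siRNA 2, beside −0.10 and 0.01 over all tested genes. Median-of-ratios scaling moved the siRNA 1 medians up, to −0.11 for the subunits and 0.01 for all genes. This scaling shifts all genes of a library by nearly the same amount, so the gap between these medians could hardly change.

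Few subunit genes passed the size rule in the same direction with both siRNAs. Of the 35 tested, 2 were higher with both, where 7.43% of all tested genes were; of these NDUFB5 is described here. NDUFB10 was the 1 gene lower with both, where 11.0% of all tested genes were. The counting intervals of the siRNA 1 ratios lay above 100% of the control for 5 of the 37 subunit genes, below it for 23 and held it for 9. Those of siRNA 2 lay above it for 9, below it for 8 and held it for 20. The matching shares over all tested genes were not computed, so these counts do not set the subunit genes apart from other genes.

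**Figure D1:**
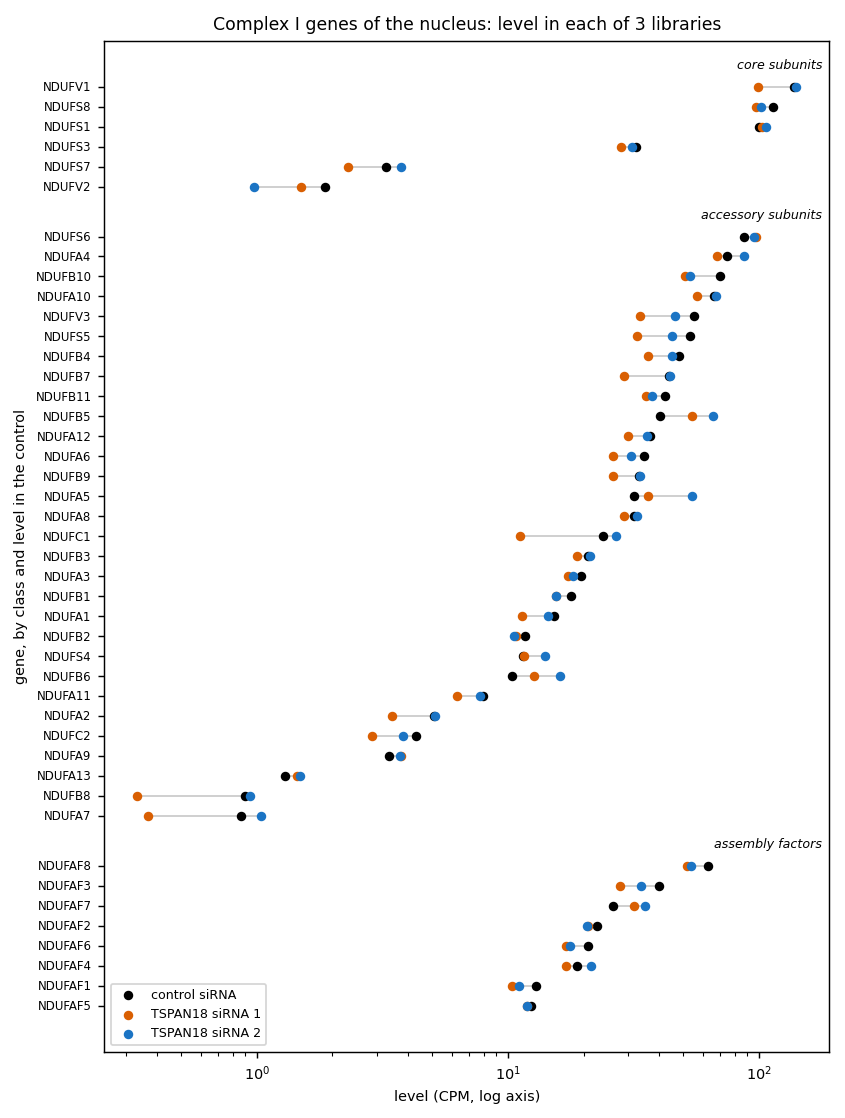
Level of the nuclear complex I genes reported here in the 3 libraries, in CPM on a log axis, with the control in black, TSPAN18 siRNA 1 in orange and TSPAN18 siRNA 2 in blue; grey lines join the lowest and highest library. The orange points are often the leftmost, and NDUFC1 shows the siRNA 1 point far left of the others (11.2 against 23.9 and 26.98 CPM).

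Among the core subunits, NDUFV1 was low with siRNA 1 alone, NDUFS8 was below the control with both siRNAs and NDUFS1 stayed near it. NDUFV1, which binds the flavin and oxidises NADH, was at 138, 99.1 and 141 CPM, so that siRNA 1 alone was low (71.9%, 68.6 to 75.4). NDUFS1, the largest subunit and a carrier of iron-sulfur clusters, varied little, at 100.04, 103 and 107 CPM. NDUFS8, a ferredoxin-like subunit, was at 114, 97.2 and 102 CPM, and both siRNA libraries were below the control by more than counting error (85.5%, 81.3 to 89.8, and 89.4%, 85.1 to 93.9). Both ratios of NDUFS8 turned to 0.17 and 0.02 on the log2 scale when the GC trend was removed. The GC trend is the trend of the ratios with the GC content of each gene's longest transcript. NDUFS3, a core subunit of the peripheral arm, was at 32.3, 28.1 and 31.3 CPM, with siRNA 1 the lowest. The iron-sulfur subunits NDUFS7 (3.26, 2.31 and 3.76 CPM) and NDUFV2 (1.86, 1.504 and 0.974 CPM) rested on at most 112 read pairs in any library. NDUFV2 was the other subunit gene to pass the rule downwards with siRNA 2, at 52.3% of the control (32.2 to 83.3), where 29 pairs stood against 56.

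Of the accessory subunits above the control with both siRNAs, NDUFB5, NDUFB6 and NDUFA5 were further above it with siRNA 2. NDUFB5, a subunit of the membrane arm, was at 40.5, 54.2 and 65.8 CPM. Its intervals of 124 to 144% and 151 to 175% of the control do not meet, so both siRNAs were above the control and siRNA 2 was above siRNA 1. With the GC trend removed its log2 ratios of 0.41 and 0.69 became 0.30 and 0.53, and it no longer passed the size rule with siRNA 1. NDUFB6, also of the membrane arm, was at 10.4, 12.7 and 16.1 CPM (121%, 104 to 141, and 154%, 133 to 178). NDUFA5, a subunit of the peripheral arm, was at 31.9, 36.2 and 54.1 CPM and thus high mainly with siRNA 2. The NDUFA5 log2 ratios of 0.18 and 0.74 became −0.06 and 0.47 with the GC trend removed. Its longest transcript holds 35.04% G and C. NDUFS6, a zinc-binding subunit near the NADH end, was at 87.2, 97.2 and 95.9 CPM, above the control with both siRNAs and short of the size rule (log2 ratios 0.16 and 0.14). NDUFA4, the gene now assigned to complex IV, was at 74.3, 67.9 and 87.01 CPM, on either side of the control.

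Of the accessory genes below the control with both siRNAs, NDUFV3 and NDUFS5 were further below it with siRNA 1. NDUFB10, a membrane-arm subunit that faces the intermembrane space, was at 69.7, 50.8 and 53.3 CPM. The siRNA libraries did not differ beyond counting error (siRNA 2 at 105% of siRNA 1, 97.7 to 113), and both lay below the control (72.95% and 76.5%). The NDUFB10 log2 ratios of −0.45 and −0.38 shrank to −0.14 and −0.24 with the GC trend removed. NDUFV3, a small subunit of the NADH-oxidising end, was at 55.1, 33.5 and 46.1 CPM, and NDUFS5, a subunit on the intermembrane-space side, was at 53.03, 32.7 and 45.1 CPM. Both were at about the same percentage with siRNA 1 (60.9% and 61.7% of the control) and nearer to it with siRNA 2 (83.7% and 85.02%). NDUFB1, a small membrane-arm subunit, was at 17.9, 15.5 and 15.6 CPM.

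A further 6 accessory genes were lower by the size rule with siRNA 1 and not with siRNA 2. NDUFB4, of the membrane arm, was at 47.97, 36.2 and 44.98 CPM, NDUFA6, of the peripheral arm, at 34.8, 26.1 and 30.9 CPM, and NDUFB9, of the membrane arm, at 33.2, 26.3 and 33.6 CPM. NDUFA1, a membrane-anchored subunit, was at 15.3, 11.4 and 14.4 CPM, NDUFA2, of the NADH-oxidising end, at 5.09, 3.44 and 5.14 CPM, and NDUFC2, of the membrane arm, at 4.32, 2.87 and 3.83 CPM. In all of them siRNA 1 was the lowest library. NDUFB4, NDUFA1, NDUFB9 and NDUFA6 no longer passed with siRNA 1 under median-of-ratios scaling. With the GC trend removed, NDUFA1, NDUFA2, NDUFB9 and NDUFA6 no longer passed with it. NDUFA3, NDUFA8, NDUFA9, NDUFA10, NDUFA11, NDUFA12, NDUFA13, NDUFB2, NDUFB3, NDUFB11 and NDUFS4 did not pass the size rule with either siRNA. Below the level filter, NDUFA7 was counted in 26, 11 and 31 pairs and NDUFB8 in 27, 10 and 28 pairs.

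Among the tested subunit genes, NDUFC1 differed most between the siRNAs; below the level filter, siRNA 2 was at 283% of siRNA 1 for NDUFA7 (139 to 625) and 281% for NDUFB8 (133 to 649). This small membrane-arm subunit gene was at 23.9, 11.2 and 26.98 CPM. With siRNA 1 it was at 46.8% of the control (40.99 to 53.4), the lowest ratio of any tested member, and with siRNA 2 at 113% (102 to 125). Its siRNA 2 level was 242% of its siRNA 1 level (212 to 275). NDUFB7, another intermembrane-space subunit, was at 44.01, 28.98 and 44.4 CPM, so that siRNA 1 alone was low. Its log2 ratio of −0.59 with siRNA 1 became −0.15 with the GC trend removed, and its longest transcript holds 64.97% G and C. Between the siRNA libraries, 10 of the 35 subunit genes passed the same rule upwards from siRNA 1 to siRNA 2, against 29.9% of all tested genes, and 1 passed it downwards, against 11.5% of all tested genes.

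**Figure D2:**
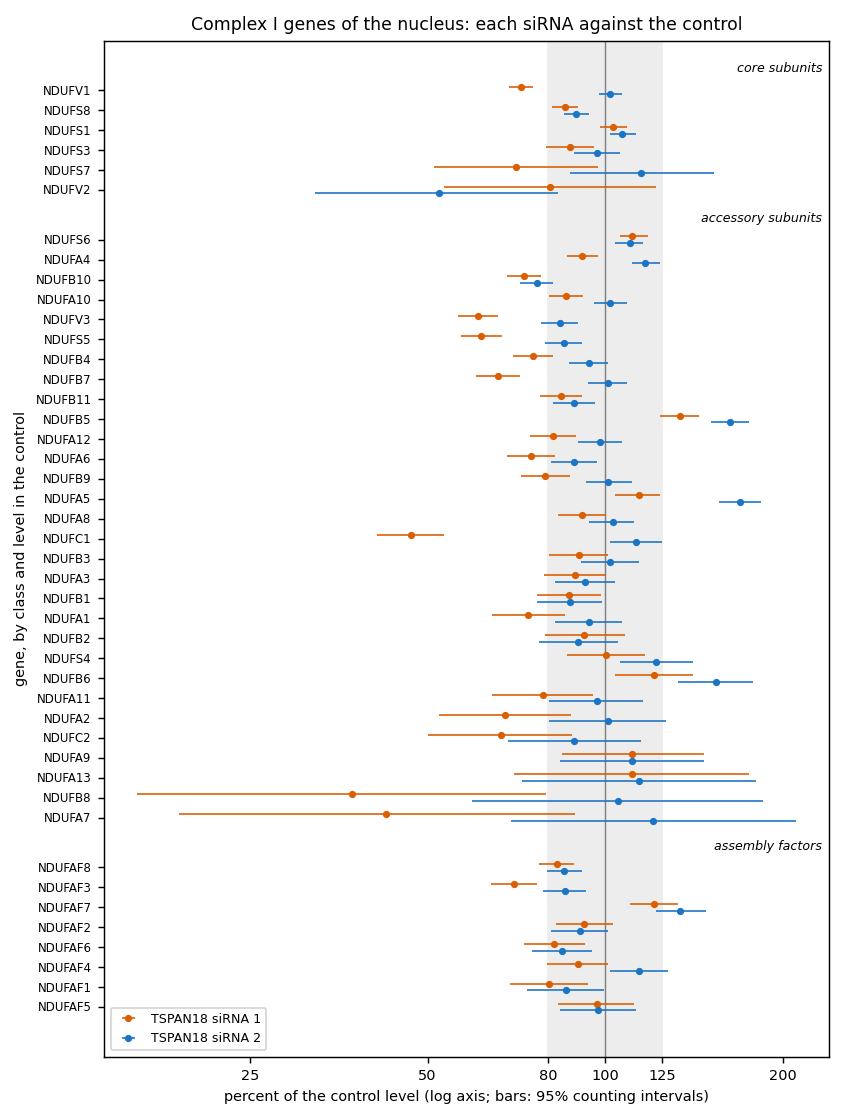
Level of the nuclear complex I genes reported here with TSPAN18 siRNA 1 (orange) and siRNA 2 (blue) as a percentage of the control, on a log axis, with 95% counting intervals; the grey band marks the limits of the size rule without a pseudocount. NDUFB5 lies to the right of the grey band with both siRNAs, NDUFB10 lies to its left with both, and NDUFC1 is far left with siRNA 1 alone (46.8%).

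The structural modules of the enzyme had medians close to each other. The median log2 ratios of the 7 genes of the NADH-oxidising N module were −0.19 with siRNA 1 and 0.03 with siRNA 2. Those of the ubiquinone-binding Q module (8 tested genes) were −0.21 and 0.04, and those of the proton-pumping membrane P module (19 tested genes) were −0.24 and −0.04. NDUFB5 and NDUFB10 belong to the P module.

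Ratios went with base composition over all tested genes, and among the nuclear members with siRNA 1 alone. Over all tested genes with at least 50% G and C in the longest transcript, the median log2 ratio was −0.27 with siRNA 1 and −0.12 with siRNA 2. Over the genes below 50% it was 0.04 and 0.10. Among the nuclear complex I genes and assembly factors, the medians were −0.29 and −0.02 for the 16 genes with at least 50%, and −0.19 and −0.03 for the 27 genes below it. With the GC trend removed, 8 of the 18 member genes past the size rule with siRNA 1 still passed it, and 6 of the 9 with siRNA 2. The genes lost included NDUFV1, NDUFB7 and NDUFAF3 with siRNA 1 and NDUFB10 with both. Under median-of-ratios scaling, 13 of the 18 still passed with siRNA 1, and 8 of the 9 with siRNA 2.

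Most assembly factor genes were below the control with both siRNAs. NDUFAF7 was above it with both and NDUFAF4 with siRNA 2. To any extent, 87.5% were below the control with siRNA 1 and 75% with siRNA 2, against 59.5% and 48.9% of all tested genes. Under median-of-ratios scaling NDUFAF5 was above the control with siRNA 1 (log2 ratio 0.06). Of 8 genes, 0 were higher by the size rule with siRNA 1 (14.7% of all tested genes) and 1, NDUFAF3, was lower (12.5%, against 30.3% of all tested genes). With siRNA 2, 1, NDUFAF7, was higher (12.5%, against 18.5% of all tested genes) and 0 were lower (17.8% of all tested genes). The median log2 ratios were −0.21 and −0.17, beside −0.10 and 0.01 over all tested genes. NDUFAF7, a methyltransferase needed for assembly, was at 26.2, 31.7 and 35.2 CPM. Both siRNA libraries were above the control by more than counting error (121%, 110.01 to 133, and 134%, 122 to 148). With median-of-ratios scaling NDUFAF7 passed the size rule with both siRNAs, and with the GC trend removed (log2 ratios 0.25 and 0.31) it passed with neither.

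NDUFAF3, which acts with NDUFAF4 in assembly of the ubiquinone-binding module, was at 39.8, 27.9 and 33.998 CPM, with siRNA 1 the lowest. With the GC trend removed its log2 ratios of −0.50 and −0.22 became −0.09 and −0.03. Its partner NDUFAF4 was at 18.9, 16.98 and 21.5 CPM and so lay on either side of the control, within counting error of it with siRNA 1 (79.6 to 101%) and above it with siRNA 2 (102 to 128%). NDUFAF8, which stabilises NDUFAF5, was at 62.6, 51.8 and 53.4 CPM, and NDUFAF5, a hydroxylase that acts on NDUFS7, was at 12.3, 11.9 and 11.9 CPM. NDUFAF8 was below the control by more than counting error with both siRNAs, while the intervals of NDUFAF5 held 100%. NDUFAF6 (20.8, 17.05 and 17.6 CPM) and NDUFAF1 (12.9, 10.4 and 11.1 CPM), both needed for assembly, were likewise below the control with both siRNAs. NDUFAF2, a relative of NDUFA12 that acts late in assembly, was at 22.7, 20.9 and 20.6 CPM, within counting error of the control with both.

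The mitochondrially encoded RNAs held a larger share of the reads with siRNA 2 than in the other libraries. They took 7.27% of counted pairs in the control (7.258 to 7.277), 7.16% with siRNA 1 (7.154 to 7.173) and 7.84% with siRNA 2 (7.827 to 7.846). The mRNAs alone held 6.02, 5.76 and 6.32%, and the rRNAs 1.22, 1.39 and 1.504%. Thus siRNA 1 was lowest for the mRNAs, and the control was lowest for the rRNAs. The nuclear subunit genes together held 0.142, 0.133 and 0.155%.

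Within the mitochondrial genome, mRNAs of complex I were above the control with siRNA 1 in their summed share and mRNAs of complex IV below it. The 7 MT-ND mRNAs together held 2.47, 2.56 and 2.703% of pairs, so that both siRNA libraries were above the control. The 3 MT-CO mRNAs held 2.94, 2.58 and 2.94%, and siRNA 1 alone was low. The median log2 ratios were 0.07 and 0.16 for the MT-ND mRNAs and −0.11 and 0.01 for the MT-CO mRNAs; with median-of-ratios scaling they were 0.19 and 0.15, and 0.01 and 0.00, so the MT-CO median with siRNA 1 lost its direction. Over all 13 mRNAs the medians were −0.01 and 0.16; the siRNA 1 median turned to 0.10 under median-of-ratios or TMM scaling, and the siRNA 2 median became 0.03 with the GC trend removed.

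Relative to the control, MT-ND2 and MT-ND1, the first protein genes after the rRNAs, were the highest complex I mRNAs with siRNA 1, and MT-ND1 and MT-ND6 were the highest with siRNA 2. MT-ND1, which encodes the subunit where the arms of the enzyme meet, was at 3931, 4509 and 4896 CPM. MT-ND2, a proton-pumping subunit gene, was at 4421, 5407 and 5129 CPM. Both genes were above the control with both siRNAs, short of the size rule on the log2(CPM + 1) scale (0.20 and 0.32 for MT-ND1, 0.29 and 0.21 for MT-ND2).

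MT-ND6, the only complex I mRNA on the opposite strand, was at 468, 504 and 576 CPM, highest with siRNA 2. MT-ND5, a pump subunit gene, was at 3646, 3838 and 4078 CPM, and MT-ND4, another pump subunit gene, at 10699, 9875 and 10662 CPM. MT-ND3 (541, 537 and 603 CPM) and MT-ND4L (1007, 942 and 1089.5 CPM), both small membrane subunits, were lowest with siRNA 1 and highest with siRNA 2. MT-ND4 was therefore the complex I mRNA with no siRNA library above the control.

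Of the other mRNAs, MT-CO1, the catalytic subunit gene of complex IV, was at 17924, 15027 and 18046 CPM. It was at 83.8% of the control with siRNA 1 (83.5 to 84.2) and 101% with siRNA 2. MT-CO2, which receives electrons from cytochrome c, was at 6408, 5944 and 6074 CPM, and MT-CO3, another core subunit gene, at 5039, 4789.9 and 5248 CPM. These 3 genes were all below the control with siRNA 1, and with siRNA 2 only MT-CO2 was. MT-CYB, the cytochrome b of complex III, was at 3956, 3979 and 4466 CPM, above the control with siRNA 2. MT-ATP6, the proton channel subunit of ATP synthase, was nearly level at 2175, 2241 and 2272 CPM.

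MT-ATP8, a small ATP synthase subunit gene, was the mitochondrial mRNA gene with the widest range relative to the control. It was at 30.7, 16.5 and 35.6 CPM, and so was low with siRNA 1 alone (53.9%, 48.2 to 60.2). It was the 1 of 13 mRNAs lower by the size rule with siRNA 1 (7.69%, against 30.3% of all tested genes), and 0 were higher (14.7% of all tested genes). With siRNA 2, 0 of the 13 passed in either direction, against 18.5% of all tested genes upwards and 17.8% downwards. MT-ATP6 was at 103% of the control with siRNA 1. MT-ATP8 shares 22.2% of its length with MT-ATP6 on the same strand. The labels do not give how pairs that touch both genes were counted, so the MT-ATP8 level is uncertain as a measure of its RNA. These shared bases are shown because a pair that covers them overlaps both genes; the capitals mark the start codon of MT-ATP6 and the stop codon of MT-ATP8 (GRCh38, chrM:8527-8572, + strand):
MT-ATP8 and MT-ATP6 shared bases: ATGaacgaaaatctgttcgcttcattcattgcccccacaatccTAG

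The RNAs that are not translated differed among themselves. MT-RNR2, the large rRNA, was at 11191, 12869 and 14107 CPM (115%, 114 to 116, and 126%, 125 to 127). MT-RNR1, the small rRNA, was at 1041, 1012 and 937 CPM, so the rRNAs lay on opposite sides of the control; under median-of-ratios scaling MT-RNR1 was above the control with siRNA 1 (log2 ratio 0.07). MT-RNR2 alone of the 16 mitochondrially encoded genes passed the size rule upwards with siRNA 2 (6.25%, against 18.5% of all tested genes). MT-RNR2 did not pass under median-of-ratios scaling or with the GC trend removed. MT-TP, the tRNA for proline and the only tRNA gene among the members, was at 197, 143 and 147 CPM (72.3%, 69.5 to 75.3, and 74.3%, 71.4 to 77.2). It was the 1 of 16 mitochondrially encoded genes lower by the size rule with both siRNAs, where 11.0% of all tested genes were. MT-CO2 and MT-RNR1 were also below the control with both siRNAs, short of the rule.

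MT-TP is encoded next to the non-coding control region, on the strand opposite to most genes. With the GC trend removed its log2 ratios of −0.46 and −0.43 became −0.73 and −0.73. Its sequence, all in lower case, is shown because MT-TP is the 1 mitochondrial gene past the size rule downwards with both siRNAs. It is 68 bases long with 33.8% G and C. Whether the pairs counted to it came from the mature tRNA or from precursors was not tested (GRCh38, chrM:15956-16023, − strand):
MT-TP: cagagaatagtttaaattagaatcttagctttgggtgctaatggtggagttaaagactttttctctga

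**Figure D3:**
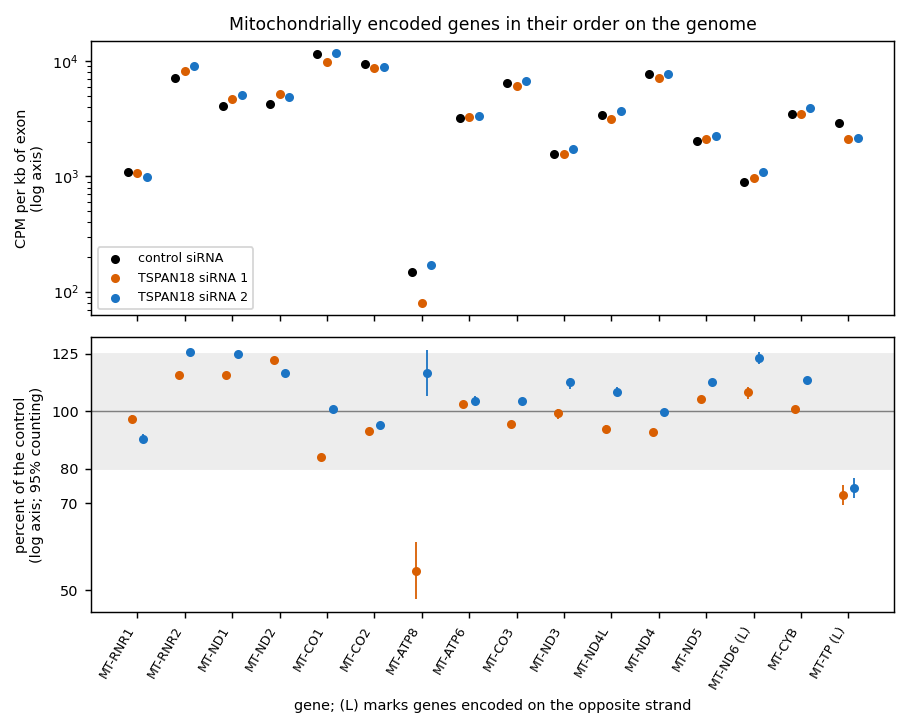
Mitochondrially encoded genes in their order on the genome, with the level in CPM per kb of exon on a log axis (upper panel; control black, siRNA 1 orange, siRNA 2 blue) and the percentage of the control with 95% counting intervals on a log axis (lower panel; grey marks the limits of the size rule). MT-ATP8 with siRNA 1 (53.9%) and MT-TP with both siRNAs (72.3% and 74.3%) lie below the band, MT-RNR2 with siRNA 2 (126%) lies just above it, and MT-CO1 lies below the control with siRNA 1 alone.

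Nuclear copies of mitochondrial genes were also listed. MTND2P28 was at 214, 240.02 and 237 CPM, MTATP6P1 at 366, 336 and 381 CPM, and MTCO1P12 at 14.3, 11.3 and 18.01 CPM. They could share reads with MT-ND2, MT-ATP6 and MT-CO1, and the values of those genes are uncertain to that extent.

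Levels per kb divide by the joined exons of all annotated transcripts of a gene, which can be longer than its mRNA, so the order of genes is approximate. On this scale the mitochondrial mRNAs stood above the nuclear complex I genes. In the control their levels ran from 148 CPM per kb for MT-ATP8 to 11624 for MT-CO1, with a median of 3468. MT-CO2 (9368 CPM per kb) and MT-ND4 (7764 CPM per kb) followed MT-CO1. The nuclear subunit genes ran from 0.323 CPM per kb (NDUFA9) to 96.8 (NDUFS5), with a median of 8.68. After NDUFS5 came NDUFB7 at 82.9 and NDUFB10 at 65.1 CPM per kb. Among core subunits, NDUFV1 was at 27.2 and NDUFS8 at 25.1 CPM per kb in the control, and the highest assembly factor was NDUFAF8 at 45.5. With siRNA 1, NDUFS6 (67.02) took the first place among the subunits, and with siRNA 2, NDUFB7 (83.6) did.

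The lowest subunit levels went with genes whose coding sequence overlaps another annotated gene. In each library 6 subunit genes (NDUFA7, NDUFA9, NDUFA13, NDUFB8, NDUFS7 and NDUFV2) were below 1 CPM per kb. Of these, 5 share at least 50% of their coding length with exons of another gene in GENCODE release 29, and NDUFS7 shares 48.5%. The 9 genes with the most shared coding length (37.8% or more) were the 9 lowest per kb in the control and with siRNA 2, and 8 of the 9 lowest with siRNA 1. They did not exceed 2.64 CPM per kb in the control, while the 28 others, which share at most 17.03%, had a minimum of 3.24 and a median of 19.5. The 9 genes with the most shared coding length are NDUFV2, NDUFB8, NDUFA7, NDUFC2, NDUFA9, NDUFA13, NDUFS7, NDUFB2 and NDUFA11. Their levels are therefore uncertain as measures of the gene's RNA. The part of the shared exons in these levels was not tested. This annotation is on GRCh38, while the authors' build was hg19.

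**Figure D4:**
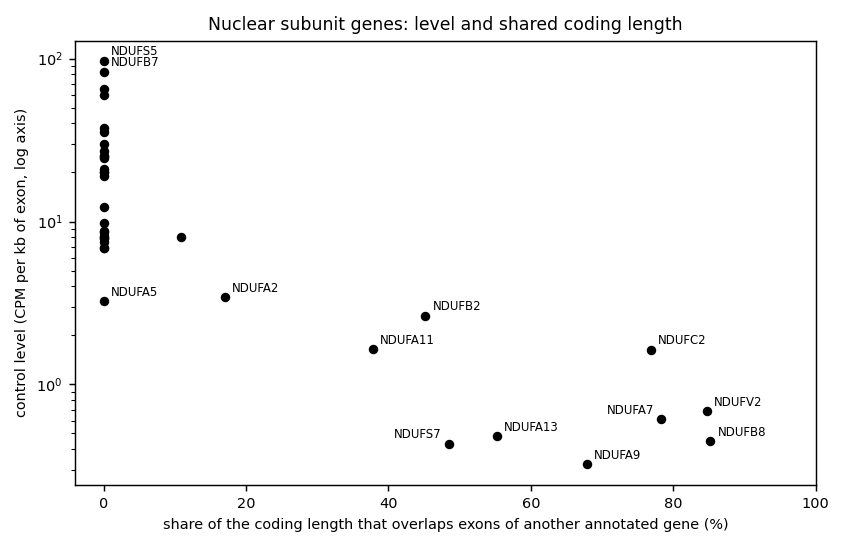
Control level of the 37 nuclear subunit genes in CPM per kb of exon (log axis) against the percentage of the coding length that overlaps exons of another gene in GENCODE release 29; each point is a gene. Genes with 37.8% or more shared lie at or below 2.64 CPM per kb, and all others lie at or above 3.24.

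Promoter letters were read for the nuclear members because NRF1, the ETS factor GABP and YY1 are known regulators of respiratory chain genes. Windows from 250 bases before to 50 after the RefSeq start (GRCh38.p14) were given for 38 of the 45 nuclear members. On either strand, the NRF1 motif GCGCANGCG was in 10 of the 38 windows (26.3%), against 9.02% of the windows of 27305 genes. The ETS motif CCGGAAG was in 7 (18.4%, against 12.2%), and the YY1 motif AAGATGGCG was in 7 (18.4%, against 2.14%). In all, 21 members held at least 1 of the motifs, and 2 NRF1 holders and 1 ETS holder also held the YY1 motif. The stretches below are the 120 bases before the start of 4 members: NDUFB10 (lower with both siRNAs, chr16:1959418-1959537, + strand), NDUFB6 (above the control with both, chr9:32573160-32573279, − strand), NDUFB7 (low with siRNA 1, chr19:14572067-14572186, − strand) and, as an example of the NRF1 motif, NDUFA12 (chr12:95003698-95003817, − strand). Capitals mark a motif, and NDUFB10 and NDUFB6 held none of the motifs in their windows.
NDUFB10: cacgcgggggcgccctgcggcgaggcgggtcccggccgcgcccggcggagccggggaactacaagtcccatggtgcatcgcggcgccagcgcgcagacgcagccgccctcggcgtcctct
NDUFB6: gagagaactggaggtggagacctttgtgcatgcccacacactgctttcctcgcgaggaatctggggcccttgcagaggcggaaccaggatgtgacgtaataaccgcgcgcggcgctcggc
NDUFB7: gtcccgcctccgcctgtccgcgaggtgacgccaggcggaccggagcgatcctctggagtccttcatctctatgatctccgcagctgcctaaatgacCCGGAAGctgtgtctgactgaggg
NDUFA12: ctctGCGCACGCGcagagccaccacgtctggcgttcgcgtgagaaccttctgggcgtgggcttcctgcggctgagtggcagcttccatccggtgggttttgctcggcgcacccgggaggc

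The genes of these regulators lay on both sides of the control. GABPA, the DNA-binding subunit of GABP, was at 41.6, 69.7 and 62.99 CPM, and was higher with both (log2 ratios 0.73 and 0.59). Its partner GABPB1 was at 37.1, 52.9 and 45.3 CPM, and YY1 at 183, 237 and 198 CPM, both past the size rule with siRNA 1 alone. The coactivator PPARGC1B (22.7, 14.2 and 13.9 CPM) and the nuclear receptor ESRRA (50.3, 27.04 and 35.7 CPM) were lower with both, though with the GC trend removed ESRRA passed with siRNA 1 alone (log2 ratios −0.48 and −0.30). NRF1 (24.3, 24.6 and 22.7 CPM) and PPRC1 (271, 302 and 252 CPM), a coactivator of the same family as PPARGC1B, did not pass the rule. None of these genes passed limma (smallest adjusted p 0.992).

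Other genes of complex I, mostly further assembly proteins, were close to the control. Of 12 tested, 0 were higher (14.7% of all tested genes) and 2 lower (16.7%, against 30.3% of all tested genes) with siRNA 1. With siRNA 2, 1 was higher (8.33%, against 18.5% of all tested genes) and 0 lower (17.8% of all tested genes). Their median log2 ratios were −0.09 and 0.00. The other complexes of the chain are given for scale, and the shares of all tested genes given above (14.7% higher and 30.3% lower with siRNA 1, 18.5% and 17.8% with siRNA 2) stand beside each of their counts. Complex II (8 genes) had 1 higher and 0 lower with siRNA 1 and 2 higher and 0 lower with siRNA 2. SDHD, a membrane anchor, was at 26.2, 34.1 and 38.5 CPM and was higher with both, but with siRNA 2 alone once the GC trend was removed (log2 ratios 0.30 and 0.40), and SDHB, the iron-sulfur subunit, was at 76.5, 83.8 and 96.01 CPM and passed with siRNA 2 alone. SDHA, the flavoprotein, was at 337, 312 and 314 CPM and SDHC, the other anchor, at 154, 155 and 174 CPM. Its assembly factors SDHAF1 (14.6, 13.8 and 16.4 CPM), SDHAF2 (3.96, 4.08 and 3.897 CPM), SDHAF3 (18.6, 15.04 and 20.1 CPM) and SDHAF4 (2.395, 1.97 and 3.23 CPM) did not pass the rule.

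Complex III (15 genes) had 1 higher and 3 lower with siRNA 1 and 3 higher and 1 lower with siRNA 2. CYC1, its cytochrome c1, was at 187, 135 and 113 CPM and was lower with both; with the GC trend removed its log2 ratios of −0.47 and −0.72 became −0.11 and −0.56, so that it passed with siRNA 2 alone. LYRM7, which helps to insert its iron-sulfur protein, was at 16.2, 25.04 and 26.8 CPM and was higher with both. Complex IV (26 tested genes) had 2 higher and 9 lower with siRNA 1 and 3 higher and 5 lower with siRNA 2, with medians of −0.24 and −0.06. COX5A (111, 83.1 and 78.6 CPM) and COX5B (41.6, 27.6 and 31.5 CPM), both structural subunits, were lower with both. COX20, a chaperone of the MT-CO2 protein, was higher with both at 1.497, 2.98 and 2.72 CPM, but 71.998% of its exons overlap those of other genes.

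Complex V (17 tested genes) had 0 higher and 6 lower with siRNA 1 and 1 higher and 3 lower with siRNA 2, with medians of −0.24 and 0.01. ATP5D, a subunit of the central stalk, was at 96.4, 48.5 and 55.8 CPM and ATP5G3, a subunit of the rotor ring, at 89.8, 69.97 and 66.9 CPM, both lower with both siRNAs. ATP5D had a limma p of 0.0225 and an adjusted p of 0.992. The nuclear subunits of complex I thus had a siRNA 1 median of −0.22, close to the −0.24 of complexes IV and V; whether the complexes differ was not tested.

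**Figure D5:**
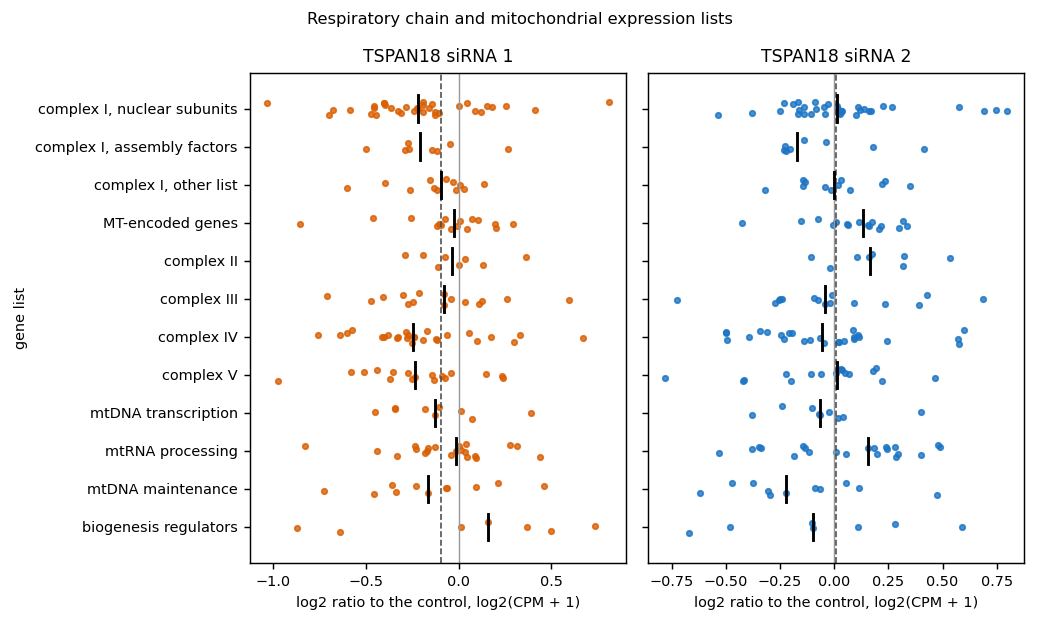
Log2 ratio to the control, on the log2(CPM + 1) scale, of each tested gene of the complex I groups and the other mitochondrial lists, with siRNA 1 on the left and siRNA 2 on the right; short black bars are list medians, the dashed line is the median of all tested genes and the grey line is 0. With siRNA 1 the subunit median lies at −0.22, left of the dashed line at −0.10, and with siRNA 2 both lie at 0.01.

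Genes that make and keep mitochondrial RNA and DNA lay on both sides of the control. Their counts also stand beside the shares of all tested genes. Those were 14.7% higher and 30.3% lower with siRNA 1, and 18.5% and 17.8% with siRNA 2. Of 9 transcription genes, 1 was higher and 3 lower with siRNA 1, and 1 was higher and 1 lower with siRNA 2; POLRMT, the mitochondrial RNA polymerase, was lower with both (162, 127 and 124 CPM), with log2 ratios of −0.34 and −0.38 that became 0.12 and −0.15 with the GC trend removed. Of 21 RNA processing and stability genes, 1 was higher and 3 lower with siRNA 1, and 3 were higher and 4 lower with siRNA 2. GRSF1, an RNA-binding protein of mitochondrial RNA granules, was at 149, 83.1 and 117 CPM and TBRG4, an RNA-stability factor, at 170.2, 125 and 131 CPM, and both were lower with both siRNAs. The TBRG4 log2 ratios of −0.44 and −0.38, with the GC trend removed, became −0.14 and −0.25, and it passed with neither. Of 11 DNA maintenance genes, 1 was higher and 4 lower with siRNA 1, and 1 was higher and 3 lower with siRNA 2. TWNK, the mitochondrial DNA helicase, was at 55.6, 40.3 and 35.8 CPM and TK2, the mitochondrial thymidine kinase, at 19.3, 15.1 and 13.6 CPM, both lower with both siRNAs. Both passed with siRNA 2 alone once the GC trend was removed, TWNK at −0.25 and −0.55 and TK2 at −0.19 and −0.44 on the log2 scale.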

How the data were processed

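RNA from 3 DU145 samples was sequenced as paired-end reads, with 1 library per condition. The submitters' processing notes name HISAT2 2.1.0, hg19, HTSeq 0.6.1 and bcl2fastq 2.19.1. Not given in the sources used here were the strand setting, the annotation release and the siRNAs' sequences. The tables the authors deposited hold 1 CPM value per gene, and 100.0% of the values were whole reads within 0.001 read. Read pairs were recovered from them; genes at exactly 1 read (97 to 178 per table) were taken to be zeros written as 1. A count of 0 allows up to 3 pairs (0.0998 to 0.101 CPM).

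A mean level of 1 CPM or more was required, and ratios are of log2(CPM + 1), which understates low genes. The main test was limma 3.58.1 (R 4.3.3), with Benjamini-Hochberg adjustment, a threshold of 0.05 and 6.27 prior degrees of freedom; edgeR 4.0.16 and DESeq2 1.42.0 ran on recovered pairs as alternatives. The libraries of the TSPAN18 siRNAs come from different siRNAs, and nothing says that they came from separate cultures of one condition, so p-values measure only the spread between these samples, which may be technical. PCR copies are not independent molecules.

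Named genes were all mitochondrial mRNAs and rRNAs, core subunits, the 4 highest and 4 lowest accessory subunits and assembly factors with both siRNAs, the 3 of each that differed most between siRNAs, the 3 highest per kb of each class, and up to 3 genes of each further list past the size rule with both siRNAs (all genes of lists of 8 or fewer). MT-TP, NDUFA4 and the remaining members were named after their values were seen. Some genes that the rule takes are not reported here, though they remain in the fits, medians and counts. The members and lists were chosen with earlier results of these data known. GENCODE release 29 (GRCh38) gave the joined exon length and the overlap of each gene. It also gave the GC content of the longest transcript, coding where there was one (99.8% of tested genes). The GC trend was removed with a lowess curve (fraction 0.3). Promoters came from RefSeq (GRCh38.p14), and mitochondrial sequences from the GRCh38 genome. The limma script was tested on simulated data. Intervals used scipy 1.17.1, figures matplotlib 3.10.9, and the lowess curve statsmodels 0.14.6, with pandas 2.3.3 and numpy 2.4.6 under Python 3.11.15.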

Additional observations from a re-analysis of the deposited data

How the results depend on the processing

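No paired analysis was possible because only the TSPAN18 siRNA libraries carry numbers and the control has 1 library. Left out in turn, the siRNA libraries gave the following ranges: the nuclear subunit median, −0.15 over the mean of both siRNAs, ran from −0.22 to 0.01 and so changed sign; the mitochondrial mRNA median, 0.05, ran from −0.01 to 0.16 and changed sign; the assembly factor median ran from −0.21 to −0.17. Subunit genes past the size rule ran from 2 to 4 higher and 2 to 13 lower, assembly factors from 0 to 1 in each direction, and mitochondrially encoded genes from 0 to 1 higher and 1 to 2 lower. Each such setting counts genes past the rule with 1 siRNA in place of both. limma without a siRNA library was not run, since no residual degrees of freedom are left.

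Under median-of-ratios or TMM scaling the siRNA 1 median of the mitochondrial mRNAs turned from −0.01 to 0.10 and that of the assembly factors moved from −0.21 to −0.10, and 1 assembly factor in place of 0 was higher with both siRNAs. With the GC trend removed, the assembly factor medians were −0.11 and −0.13, the siRNA 2 median of the mitochondrial mRNAs was 0.03, subunit genes past the rule with both siRNAs went from 2 to 1 higher, without NDUFB5, and from 1 to 0 lower, and NDUFS7 with siRNA 1 turned from −0.37 to 0.06. The 1.5-fold rule took the subunit genes from 2 to 1 higher, without NDUFB5, and from 1 to 0 lower, and the mitochondrial genes from 1 to 0 lower, and the 2-fold rule left 0 subunit genes in either direction and 0 mitochondrial genes. The genes called over all tested were 0 in limma, 1 in limma with either scaling or the GC trend removed, 23 in the edgeR likelihood ratio test (added after the data were seen) and 14 in DESeq2; members called were 0 in each. Without the rRNA and tRNA genes the mitochondrial share was 6.02, 5.76 and 6.32%. The cause of these moves was not tested, beyond what each setting changes by construction. Of 118 member ratios, 86 under median-of-ratios scaling, 83 under TMM scaling and 72 with the GC trend removed moved less than a limit. That limit was the difference between the gene's siRNA ratios divided by the square root of 2, and it does not measure counting error. Each interval covers counting error, so differences between cultures of one condition are not measured here.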
